A study of Homo sapiens with 17 samples.

Results

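ATP-binding cassette (ABC) multidrug transporters were described in SF8628 cells, a line from a diffuse intrinsic pontine glioma (DIPG) that carries the K27M variant of histone H3, after exposure to the BET bromodomain inhibitor AZD5153. The group holds 8 of the 60664 genes in the table: *ABCB1*, *ABCB4*, *ABCC1*, *ABCC2*, *ABCC3*, *ABCC4*, *ABCC5* and *ABCG2*. Membership was chosen by name, as drug efflux transporter genes, and *ABCB1* was selected on its measured rise with AZD5153 in these same libraries. Its AZD5153-DMSO values are therefore given as a description without a test. The 8 symbols were matched to the gene identifiers of the table.

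Cells were grown as monolayers in serum-containing medium and received DMSO (vehicle) or 1 μM AZD5153 for 24 or 48 hours, with 3 RNA-Seq libraries in each of the 4 groups. All libraries come from the same line, and their labels differ only in treatment, time and replicate number. Batches of culture or sequencing are not given by the labels. The labels do not say whether replicates were separate cultures, so p-values measure the spread between these libraries, which may be technical. The oligodendrocyte lineage genes *OLIG1* and *OLIG2* were at 0 in all 12 libraries and the glial progenitor gene *PDGFRA* at 0.89 to 5.4 normalized counts, while the neural progenitor markers *NES* and *SOX2* had 527 to 2205 and 119 to 252. The libraries held from 15759148 to 27335220 reads on genes. Replicate 1 of DMSO at 24 hours stood apart from its group. Its chi-square of read counts, divided by the degrees of freedom, was 15.2 and 22.9 against replicates 2 and 3, compared with 2.09 to 4.82 in the other pairs.

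ABC transporters of this group use ATP to move compounds out of the cell against their gradient. They are known for lowering the intracellular level of many cytotoxic and targeted drugs, and *ABCB1* and *ABCG2* also act at the luminal membrane of brain capillaries, where they limit the entry of drugs into the brain. The *ABCB* and *ABCC* members here are single polypeptides, while *ABCG2* encodes a shorter protein that works as a dimer. RNA levels, which are all that was measured here, are not transport activity.

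The RefSeq promoter table (GRCh38.p14) had entries for 5 of the 8 members, namely *ABCB1*, *ABCC2*, *ABCC4*, *ABCC5* and *ABCG2*. The sequences below are the 250 bases upstream of annotated starts, shown because *ABCB1* and *ABCC5* were higher and *ABCC2* lower with AZD5153 at both times. Capitals mark matches on either strand to the 5 motifs searched, which were the CCAAT box, the GC box (letters GGGCGG), the E-box (letters CACGTG), the AP-1 motif (letters TGANTCA) and the core of the antioxidant response element (letters TGACNNNGC). The first is the downstream *ABCB1* start (chr7:87600885-87601134, minus strand), the next the upstream *ABCB1* start (chr7:87713296-87713545, minus strand), followed by *ABCC5* (chr3:184017885-184018134, minus strand) and *ABCC2* (chr10:99782390-99782639, plus strand).
ABCB1 downstream start: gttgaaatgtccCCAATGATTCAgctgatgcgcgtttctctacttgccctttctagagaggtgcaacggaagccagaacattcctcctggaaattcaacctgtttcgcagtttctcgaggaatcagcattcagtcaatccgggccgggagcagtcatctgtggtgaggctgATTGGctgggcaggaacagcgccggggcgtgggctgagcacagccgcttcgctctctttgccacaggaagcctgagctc
ABCB1 upstream start: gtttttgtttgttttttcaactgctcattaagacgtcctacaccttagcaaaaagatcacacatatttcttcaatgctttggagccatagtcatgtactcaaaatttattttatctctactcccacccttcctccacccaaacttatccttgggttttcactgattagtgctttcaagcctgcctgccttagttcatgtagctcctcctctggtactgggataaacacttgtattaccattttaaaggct
ABCC5: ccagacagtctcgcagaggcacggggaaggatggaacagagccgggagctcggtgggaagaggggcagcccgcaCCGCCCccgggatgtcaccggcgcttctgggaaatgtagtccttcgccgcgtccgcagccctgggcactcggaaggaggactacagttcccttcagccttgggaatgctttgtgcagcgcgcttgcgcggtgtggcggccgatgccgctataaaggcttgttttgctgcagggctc
ABCC2: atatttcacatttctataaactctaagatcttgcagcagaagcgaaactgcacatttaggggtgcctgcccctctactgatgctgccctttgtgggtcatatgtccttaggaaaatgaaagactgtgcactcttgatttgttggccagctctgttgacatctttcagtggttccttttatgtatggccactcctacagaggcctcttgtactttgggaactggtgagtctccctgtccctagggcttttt

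The downstream *ABCB1* promoter held 2 matches to the CCAAT box, 1 on each strand, and 1 AP-1 match that overlaps the first of them. The box is the core of the sequence bound by the trimeric factor NF-Y, and 32% of the 35116 promoters of the table held it. The upstream *ABCB1* promoter held none of the motifs, with a GC content of 39.2% against 55.6% at the downstream start. The *ABCC5* promoter held 1 GC box, which was found in 42.6% of all promoters, and the *ABCC2* promoter held none of the motifs. Of the promoters not printed, that of *ABCC4* held 1 match to the antioxidant response core. At *ABCG2*, 2 overlapping promoters of the 5 annotated starts each held 2 GC boxes and 1 E-box, and the other 3 held none of the motifs. The AP-1 motif was in 6.57% of promoters, the E-box in 6.34% and the antioxidant response core in 10.9%. The counts per gene do not tell which *ABCB1* start was used.

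*ABCB1* (ENSG00000085563, chr7:87503017-87713323, minus strand) encodes P-glycoprotein, the broad-specificity pump of hydrophobic drugs. In DMSO at 24 hours it had 156, 161 and 151 normalized counts in replicates 1, 2 and 3 (gene counts divided by 1 size factor per library). With AZD5153 at 24 hours it had 1313, 1345 and 1229. After 48 hours it had 165, 160 and 147 in DMSO and 1298, 1252 and 1275 with AZD5153. Every AZD5153 library was thus above every DMSO library at both times, and the levels within a treatment lay close together. Groups that did not overlap, in either direction, were found for 68.8% of all genes tested at 24 hours and 74.7% at 48 hours. Mean levels were 156 ± 5.1 against 1296 ± 60.1 at 24 hours and 157 ± 9.25 against 1275 ± 23.4 at 48 hours (SD, n = 3). The AZD5153-DMSO difference was 3.05 on the log2(normalized count + 1) scale at 24 hours, an 8.27-fold higher level, and 3.01 at 48 hours, or 8.08-fold. Among the 15599 genes whose mean reached 10 normalized counts, its log2 difference ranked 108 from the highest at 24 hours and 78 at 48 hours. As *ABCB1* was chosen for its rise, neither the separation nor these ranks are evidence for that rise. The change with time, which did not enter the choice of the gene, could be tested. From 24 to 48 hours *ABCB1* differed by 0.01 in DMSO (95% interval -0.154 to 0.178, limma adjusted p = 0.93) and by -0.02 with AZD5153 (-0.188 to 0.144, adjusted p = 0.86). Of all genes tested, 35.7% changed between the times in DMSO and 29.7% with AZD5153.

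**Figure D1:**
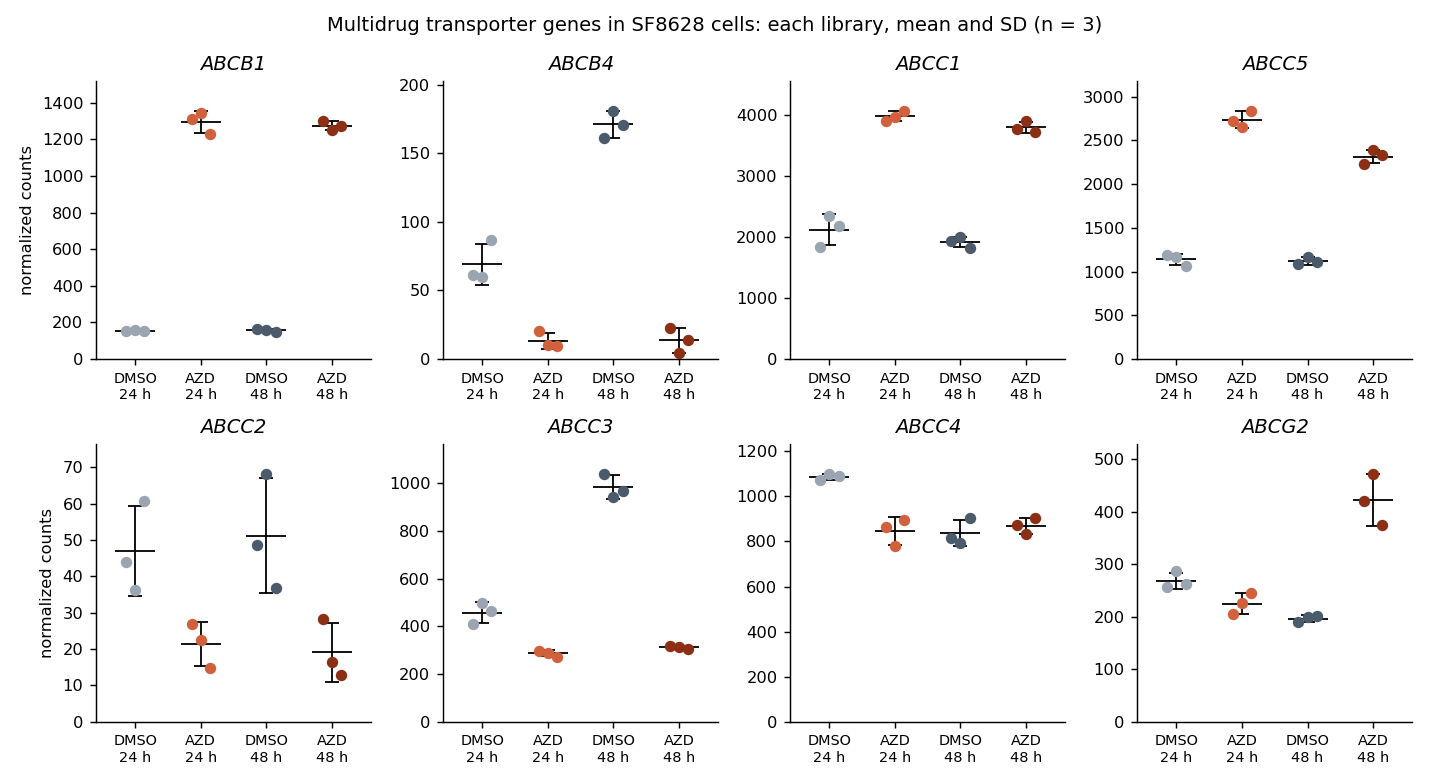
Normalized counts (linear y axis from 0, scale differing by panel) of the 8 transporter genes in the 4 groups on the x axis, with 1 point per library, the mean as a horizontal line and the SD as an error bar (n = 3). The *ABCB1* libraries lie between 147 and 165 in DMSO and between 1229 and 1345 with AZD5153, and *ABCB4* goes the other way.

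The other 7 members were taken as a family, and their differences were tested in a limma fit over all genes with Benjamini-Hochberg adjustment at 0.05. At 24 hours 2 of the 7 were higher and 5 lower with AZD5153, in a comparison where 68.5% of all genes tested passed, 33.9% higher and 34.6% lower. At 48 hours 3 were higher and 3 lower, where 67% of all genes passed, 33.1% higher and 33.9% lower. With so large a background, the share of members called is not in itself a result about them, and the directions and sizes are what the following values show. The groups of AZD5153 and DMSO libraries did not overlap for any of these 7 at 24 hours, where that held for 68.8% of all genes tested, nor for 6 of the 7 at 48 hours (all but *ABCC4*), where it held for 74.7%. All 8 passed the minimum mean of 10 normalized counts. With each library left out in turn, 4 or 5 members were lower at 24 hours and 3 at 48 hours. The count of 5 included *ABCG2*, whose call was lost in 8 of these 12 fits, and it held without replicate 1 of DMSO at 24 hours. As cells were measured in bulk, fewer cells that express a gene and less RNA per cell cannot be told apart.

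**Figure D2:**
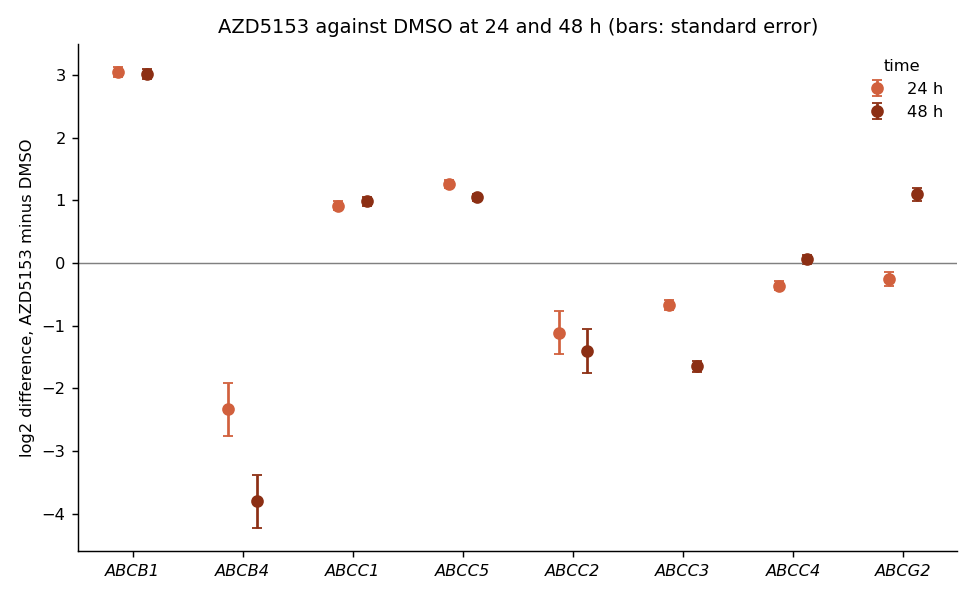
Log2 difference between AZD5153 and DMSO (y axis, on the log2(normalized count + 1) scale) for each transporter gene at 24 and 48 hours, with the standard error of the fit as bars. *ABCB1*, *ABCC1* and *ABCC5* lie above 0 at both times, *ABCB4*, *ABCC2* and *ABCC3* below 0 at both, and *ABCG2* lies below 0 at 24 hours and above it at 48 hours.

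*ABCB4* (ENSG00000005471, chr7:87401696-87480435, minus strand) is the closest relative of *ABCB1* and moves phosphatidylcholine into bile. At 24 hours it had 60.9, 59.8 and 86.5 normalized counts in DMSO and 20.1, 10.2 and 9.79 with AZD5153. The values at 48 hours were 161, 181 and 171 in DMSO and 22.8, 4.35 and 13.7 with AZD5153. The DMSO libraries thus stood above all AZD5153 libraries, and those of 48 hours above those of 24 hours. *ABCB4* fell by 2.34 on the log2 scale at 24 hours (SE 0.424, limma adjusted p = 0.00015) and by 3.80 at 48 hours (adjusted p = 8.2e-07), corresponding to 5.05-fold and 13.9-fold lower levels. The AZD5153 libraries at 48 hours held only 4 to 25 reads of the gene, so the fold is imprecise and its 95% interval at 48 hours ran from -4.7 to -2.9 on the log2 scale. In DMSO the gene rose by 1.32 from 24 to 48 hours (adjusted p = 0.024), a call lost in 5 of 23 alternatives, with adjusted p-values up to 0.074. These were the fit without a trend in the variance (0.059) and the fits without DMSO 24 hour replicate 2 (0.07) or DMSO 48 hour replicate 1, 2 or 3 (0.057, 0.074 and 0.065). The difference between the effects at 48 and 24 hours was -1.47 and did not pass (adjusted p = 0.087), although it did in 3 of 22 alternatives, among them the fit without AZD5153 48 hour replicate 1 (-1.94, adjusted p = 0.021). Without AZD5153 48 hour replicate 2, the library with the fewest reads of the gene, it was -0.86 (adjusted p = 0.18), and the difference at 48 hours was -3.20 (adjusted p = 8.2e-07). With all libraries and a pseudocount of 10, the difference at 48 hours was -3.02.

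*ABCB1* and *ABCB4* lie 22.6 kb apart on the same strand and had opposite differences. Their transcripts (GENCODE 44) share an identical run of 122 bases at most, and 1.83% of the 50-base stretches of *ABCB1* transcripts occur in *ABCB4* transcripts. No other pair of the 8 genes shares a run longer than 35 bases. Reads confined to the shared run cannot be assigned to 1 of the genes, and the read pairs were 150 bases from each end.

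Within 250 kb of *ABCB1*, 7 other genes reached a mean of 10 normalized counts, with no common direction. *RUNDC3B* starts within the *ABCB1* gene body on the opposite strand and shares 0 exon bases with it. The strand setting of the counting is not given, so reads of unspliced *ABCB1* RNA over *RUNDC3B* exons cannot be told apart from its own. *RUNDC3B* had between 46.4 and 64.3 normalized counts in DMSO and between 92.2 and 140.8 with AZD5153 at 24 hours. That was a rise of 1.06 on the log2 scale (limma adjusted p = 0.00012), and it rose by 1.16 at 48 hours (adjusted p = 5e-05). *ADAM22*, a receptor for the secreted LGI proteins, rose by 0.82 at 24 hours and 0.78 at 48 hours (adjusted p = 2.5e-05 and 4.3e-05). *SLC25A40*, a mitochondrial carrier, fell by 0.64 at 24 hours and fell by 0.66 at 48 hours (adjusted p = 1.5e-06 and 1.2e-06). *DBF4*, the activating subunit of the CDC7 kinase in DNA replication, fell by 1.61 at 24 hours and fell by 0.74 at 48 hours (adjusted p = 3.2e-10 and 3.2e-06).

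At lower coordinates, the long non-coding RNA *TP53TG1*, with a mean of 18 normalized counts, differed by 1.15 at 24 hours and by 1.55 at 48 hours. It had 7.13 to 14.65 normalized counts in DMSO and 16.09 to 28.15 with AZD5153 at 24 hours, and 5.4 to 14.41 and 24.81 to 33.74 at 48 hours. Over both times together it passed the minimum mean of 10 only through the AZD5153 libraries, so no test is given for it. *CROT*, a peroxisomal carnitine acyltransferase, rose by 0.33 at 24 hours (limma adjusted p = 0.024) and by 0.44 at 48 hours (0.0045). The 24-hour call of *CROT* was lost without DMSO 24 hour replicate 1 (adjusted p = 0.11) or AZD5153 24 hour replicate 1 or 3 (0.078 and 0.062). Scaling to equal totals removed both *CROT* calls (0.13 and 0.06).

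**Figure D3:**
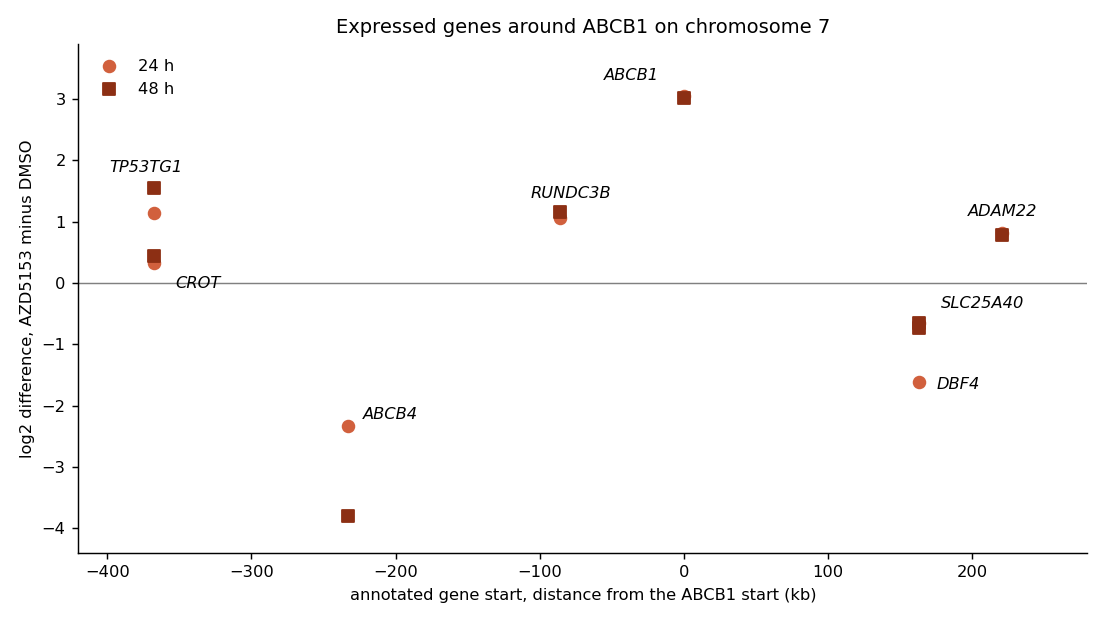
Log2 difference between AZD5153 and DMSO (y axis) of the expressed genes within 250 kb of *ABCB1*, against the distance of each annotated gene start from that of *ABCB1* in kb (x axis). Circles are 24 hours and squares 48 hours, and where a circle is hidden the values nearly coincide. *ABCB1* is at 3.05 and 3.01, and *ABCB4* at -2.34 and -3.80.

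*ABCC1* and *ABCC5* rose at both times. *ABCC1* (ENSG00000103222, chr16:15949138-16143257, plus strand) encodes MRP1, which exports glutathione conjugates and leukotriene C4. It had 1843, 2354 and 2177 normalized counts in DMSO and 3911, 3978 and 4076 with AZD5153 at 24 hours, so that the lowest treated library was well above the highest control. At 48 hours it had 1943, 1997 and 1823 in DMSO and 3779, 3910 and 3733 with AZD5153. The rise at 24 hours was 0.92 on the log2 scale, or 1.89-fold (SE 0.0717, limma adjusted p = 1.3e-08). It was 0.99 at 48 hours, or 1.98-fold (adjusted p = 5.3e-09). The effects at the 2 times did not differ beyond the spread (0.07, 95% interval -0.144 to 0.288, adjusted p = 0.65). In DMSO the level differed by -0.14 between the times (adjusted p = 0.15), which became -0.24 with an adjusted p of 0.00061 when DMSO 24 hour replicate 1, the lowest library of its group, was left out.

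*ABCC5* (ENSG00000114770, chr3:183919934-184017939, minus strand) encodes MRP5, an exporter of cyclic nucleotides and nucleotide analogs. It had 1190, 1167 and 1069 normalized counts in DMSO and 2727, 2648 and 2838 with AZD5153 at 24 hours. After 48 hours it had 1082, 1166 and 1113 in DMSO and 2230, 2386 and 2329 with AZD5153. The control ranges of the 2 times thus overlapped, and the treated libraries of 48 hours lay below all those of 24 hours. *ABCC5* rose by 1.26 at 24 hours (SE 0.0586, limma adjusted p = 2.5e-11) and by 1.05 at 48 hours (adjusted p = 2.4e-10), that is 2.4-fold and 2.07-fold. Within AZD5153 it fell by 0.24 from 24 to 48 hours (adjusted p = 0.0055). The difference between the 2 effects, -0.22, did not pass (adjusted p = 0.071), although it did in 4 of 23 alternatives, among them the fit without DMSO 24 hour replicate 1 (adjusted p = 0.019).

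*ABCC3* and *ABCC2* were lower at both times. *ABCC3* (ENSG00000108846, chr17:50634777-50692253, plus strand) encodes MRP3, which exports glucuronides and bile salts. It had 411, 497 and 464 normalized counts in DMSO and 298, 290 and 273 with AZD5153 at 24 hours. The values at 48 hours were 1040, 941 and 969 in DMSO and 319, 313 and 305 with AZD5153. The DMSO libraries of 48 hours were thus far above those of 24 hours, while the AZD5153 libraries of both times lay between 273 and 319. *ABCC3* fell by 0.67 at 24 hours (SE 0.0859, limma adjusted p = 4.1e-06) and by 1.65 at 48 hours (adjusted p = 9.8e-11), and the effects differed by -0.98 (adjusted p = 4e-05). In DMSO it rose by 1.11 from 24 to 48 hours (adjusted p = 2.6e-07), against 0.12 with AZD5153 (adjusted p = 0.3).

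*ABCC2* (ENSG00000023839, chr10:99782640-99852594, plus strand) encodes MRP2, the conjugate exporter of the bile canaliculus. It had 43.96, 36.3 and 60.6 normalized counts in DMSO and 26.8, 22.5 and 14.7 with AZD5153 at 24 hours. At 48 hours it had 48.6, 68.3 and 36.7 in DMSO and 28.3, 16.3 and 12.8 with AZD5153. Although replicates were scattered, no treated library reached a control library of its time. *ABCC2* fell by 1.11 (SE 0.344, limma adjusted p = 0.0095) and by 1.40 (adjusted p = 0.0019), and the effects did not differ beyond the spread (-0.29, 95% interval -1.33 to 0.743, adjusted p = 0.71). Treated libraries held 12 to 31 reads of the gene, so small differences between the times were not detectable at this depth.

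*ABCC4* (ENSG00000125257, chr13:95019835-95301475, minus strand) encodes MRP4, which exports cyclic nucleotides and prostaglandins. It had 1071, 1100.4 and 1089 normalized counts in DMSO and 865, 778 and 895 with AZD5153 at 24 hours. After 48 hours it had 813, 793 and 904 in DMSO and 873, 831 and 904 with AZD5153. The DMSO libraries of 24 hours thus stood above the other 9 libraries, whose ranges overlapped. *ABCC4* fell by 0.36 at 24 hours (SE 0.0719, limma adjusted p = 0.00033) and differed by 0.06 at 48 hours (95% interval -0.097 to 0.209, adjusted p = 0.51). The effects differed by 0.42 (adjusted p = 0.0073), and in DMSO the gene fell by 0.38 from 24 to 48 hours (adjusted p = 0.00075).

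*ABCG2* (ENSG00000118777, chr4:88090150-88231628, minus strand) encodes BCRP, a pump of topoisomerase and tyrosine kinase inhibitors, and had differences of opposite sign at the 2 times. It had 257, 286 and 262 normalized counts in DMSO and 205, 225 and 245 with AZD5153 at 24 hours. The values at 48 hours were 189, 199 and 201 in DMSO and 420, 473 and 375 with AZD5153. The treated libraries were thus just below the controls at 24 hours and well above them at 48 hours. The difference was -0.26 at 24 hours (SE 0.109, limma adjusted p = 0.048), a call close to the threshold that was lost in 15 of 24 alternatives, with values from -0.38 to -0.08 and adjusted p-values up to 0.51. It was lost without DMSO 24 hour replicate 2 or 3 (adjusted p = 0.15 and 0.065), AZD5153 24 hour replicate 1 or 2 (0.17 and 0.087), any DMSO 48 hour replicate (0.057, 0.058 and 0.057) or AZD5153 48 hour replicate 1 (0.061). At 48 hours *ABCG2* rose by 1.10 (adjusted p = 2.2e-07), or 2.14-fold. The effects differed by 1.35 (adjusted p = 1.8e-05), with a fall of 0.45 in DMSO (adjusted p = 0.0045) and a rise of 0.90 with AZD5153 (adjusted p = 1.7e-05) from 24 to 48 hours.

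Between the times, 3 of the 7 members besides *ABCB1* had effects that differed (*ABCC3*, *ABCC4* and *ABCG2*), against 24.5% of all genes tested. In DMSO alone, 4 of the 7 changed from 24 to 48 hours, against 35.7% of all genes, and with AZD5153 alone 2 of the 7, against 29.7%. A count of 2 of 7 is near that background, so these counts are not in themselves a result about the members. The effect at each time was taken against DMSO of the same time, so a shift of the control enters it. For *ABCC3* and *ABCC4* the change with time passed the test in DMSO and did not pass with AZD5153, and for *ABCG2* it passed in both treatments, in opposite directions.

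To compare genes with each other, normalized counts were divided by the length of the canonical transcript. In DMSO at 24 hours *ABCC1* was highest with 327 normalized counts per kb, followed by *ABCC5* (197) and *ABCC4* (186), whose ranges overlapped, and then by *ABCC3* (80.4), *ABCG2* (63.8), *ABCB1* (29.9), *ABCB4* (16.1) and *ABCC2* (8.09). In DMSO at 48 hours the order was *ABCC1* (295), *ABCC5* (193), *ABCC3* (173), *ABCC4* (143), *ABCG2* (46.7), *ABCB4* (39.8), *ABCB1* (30.2) and *ABCC2* (8.82). With AZD5153, *ABCB1* took rank 3 at both times, with 249 and 245 normalized counts per kb, behind *ABCC1* (613 and 585) and *ABCC5* (473 and 399.8). *ABCB4* and *ABCC2*, with 3.12 and 3.68 normalized counts per kb at 24 hours, were then the lowest and overlapped with each other. *ABCG2* and *ABCC3* overlapped in AZD5153 at 24 hours (53.5 and 50.4) and not at 48 hours (100.5 and 54.9). Of the summed length-scaled level of the 8 genes, *ABCB1* made up 3.3% ± 0.164 in DMSO and 15.7% ± 0.954 with AZD5153 at 24 hours, and 3.24% ± 0.168 and 15.9% ± 0.496 at 48 hours (SD, n = 3). The order within DMSO depended on the length used: by the union of all annotated exons *ABCC4* was above *ABCC5* and *ABCG2* above *ABCC3* at 24 hours, and *ABCC3* above *ABCC5* and *ABCB1* above *ABCB4* at 48 hours. With AZD5153 the order was the same by that length, but *ABCB1* came closer to *ABCC5*. The means per kb were 202 and 241 at 24 hours, and 199 and 204 at 48 hours with overlapping ranges.

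**Figure D4:**
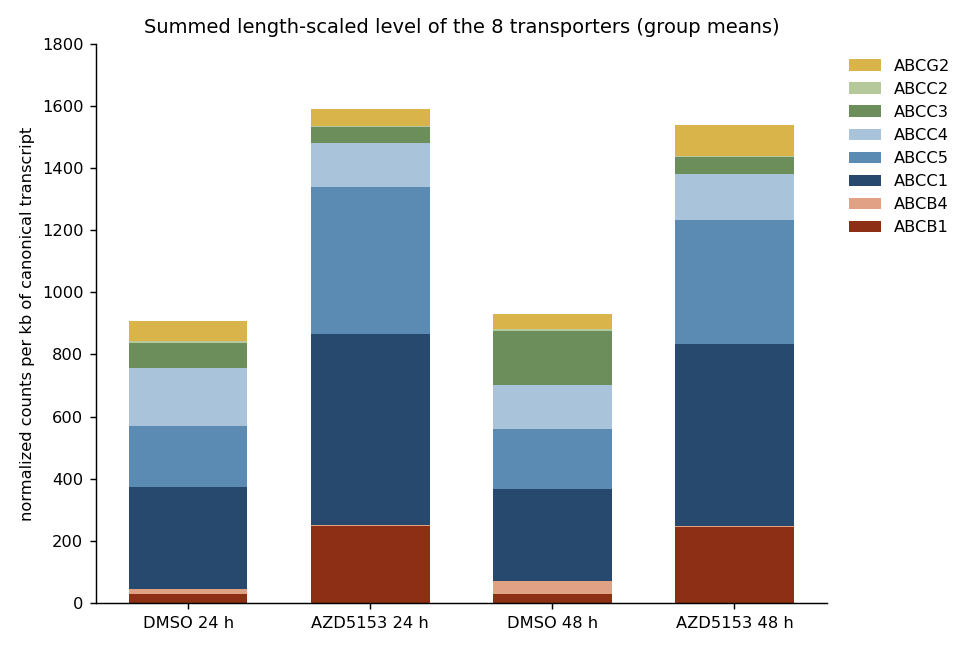
Mean normalized counts per kb of canonical transcript (y axis, linear from 0) of the 8 transporters, stacked, in the 4 groups (n = 3 each, no error shown). The *ABCB1* segment is 29.9 and 30.2 in DMSO and 249 and 245 with AZD5153, and the *ABCC1* and *ABCC5* segments are the tallest in the treated groups.

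The genes most like *ABCB1* over the 12 libraries were sought among the 10960 genes whose mean reached 100 normalized counts, by Pearson correlation of log2 values. *NQO1* (0.9981), a quinone reductase, *PEG10* (0.9981), an imprinted gene derived from a retrotransposon, *EPB41L5* (0.9978), *CHCHD7* (0.9976) and *OAT* (0.9975), ornithine aminotransferase, came first. The log2 difference of *NQO1* was 2.67 at 24 hours and 2.89 at 48 hours, and that of *PEG10* 3.13 and 3.01. Because the libraries fall into 2 treatment clusters, any gene with a large and steady difference scores high, and 113 genes were above 0.99. By Spearman correlation none (0) of these 5 genes was among the first 5. Among the members, by Pearson correlation, *ABCC5* (0.985) and *ABCC1* (0.98) were most like *ABCB1* and *ABCB4* least (-0.907), over the same 12 libraries and with no test. By Spearman correlation *ABCC1* (0.804) was above *ABCC5* (0.755), and *ABCB4* and *ABCC3* were both lowest at -0.713.

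Of 40 other ABC genes, 25 reached the minimum mean, of which 11 rose and 7 fell at 24 hours, and 11 rose and 8 fell at 48 hours (limma, adjusted over all genes). Of all genes tested, 33.9% rose and 34.6% fell at 24 hours, and 33.1% rose and 33.9% fell at 48 hours. The median log2 difference of the 25 ABC genes was 0.33 and 0.18, against 0.00 for all genes at both times. Among those counted as risen, *ABCD2* (means of 6.81 and 11.2 in DMSO, 44.3 and 53.8 with AZD5153) passed the minimum mean only through the AZD5153 libraries. *ABCC11*, counted as fallen at 48 hours (14.7 and 18.6 in DMSO, 7.73 and 7.63 with AZD5153), passed it only through the DMSO libraries. The counts were thus partly set by the filter. The lipid transporter *ABCA3*, which loads surfactant lipids into lamellar bodies, had 282 to 341 normalized counts in DMSO and 1788 to 1802 with AZD5153 at 24 hours. It rose by 2.56 at 24 hours and 2.46 at 48 hours (adjusted p = 5.5e-13 and 8e-13). *ABCC9*, the sulfonylurea receptor subunit of potassium channels and no drug pump, had 333 to 469 normalized counts in DMSO and 25.5 to 41.6 with AZD5153 at 24 hours. It fell by 3.53 at 24 hours and fell by 4.01 at 48 hours (adjusted p = 2.2e-10 and 5.1e-11). The AZD5153 libraries at 48 hours held 11 to 14 reads of *ABCC9*, and with a pseudocount of 10 the difference at 48 hours was -3.29. *ABCA8*, a lipid transporter, fell by 1.84 at 24 hours and fell by 3.12 at 48 hours (adjusted p = 2.1e-08 and 3.9e-11).

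**Figure D5:**
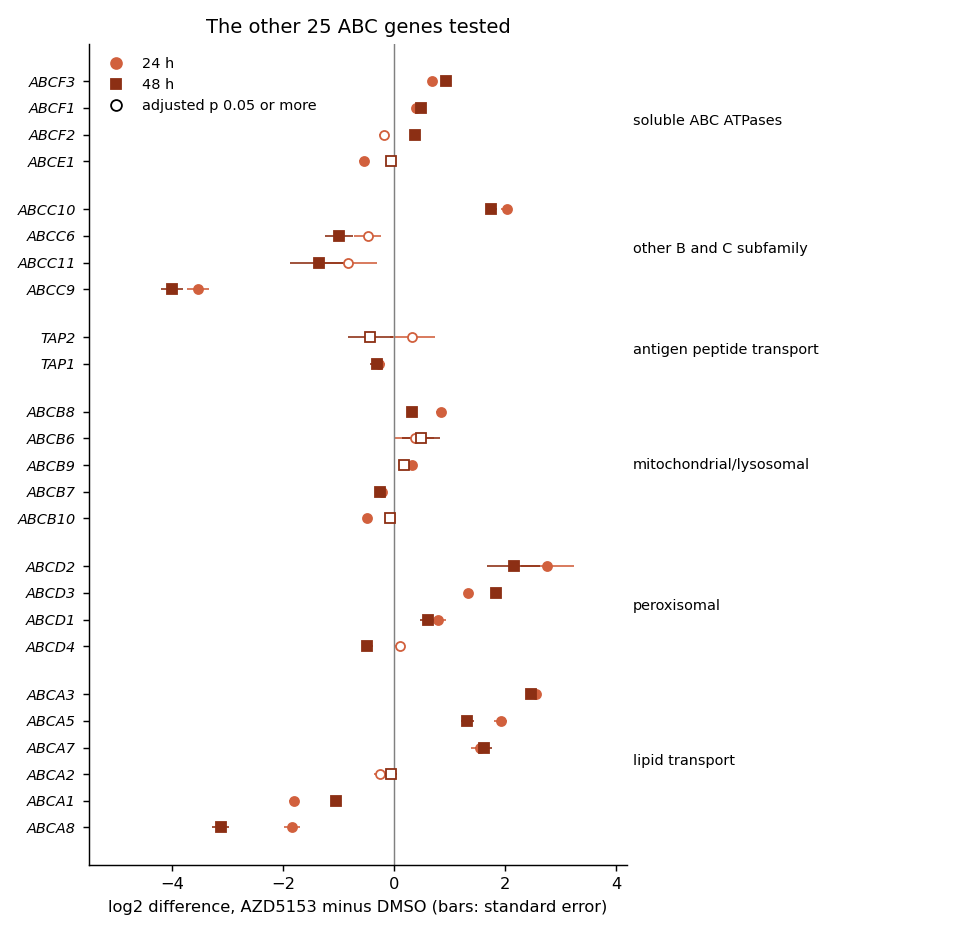
Log2 difference between AZD5153 and DMSO (x axis, with standard errors) of the 25 other ABC genes tested (y axis), grouped by function. Circles are 24 hours, squares 48 hours, and open symbols have an adjusted p of 0.05 or more. *ABCA3* lies at 2.56 and 2.46 and *ABCC9* at -3.53 and -4.01.

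Glutathione enzymes supply the substrate or the conjugates that *ABCC1* and *ABCC2* export. Of 20 genes listed 19 were matched and 17 tested, of which 11 rose and 5 fell at 24 hours and 10 rose and 4 fell at 48 hours, with median log2 differences of 0.34 and 0.36. The shares over all genes tested were 33.9% higher and 34.6% lower at 24 hours, and 33.1% and 33.9% at 48 hours. Both subunits of glutamate-cysteine ligase, the rate-limiting enzyme of glutathione synthesis, rose at both times. *GCLM*, its modifier, had 1298 to 1389 normalized counts in DMSO and 3401 to 3737 with AZD5153 at 24 hours and rose by 1.40 at 24 hours and 1.88 at 48 hours (limma adjusted p = 4.7e-12 and 2e-13). *GCLC*, the catalytic subunit, rose by 1.42 at 24 hours and 1.31 at 48 hours (adjusted p = 3.6e-11 and 9.1e-11). The microsomal transferase gene *MGST2* went the other way and fell by 1.26 at 24 hours and fell by 1.70 at 48 hours (adjusted p = 0.00069 and 3.9e-05).

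Solute carriers move drugs and metabolites across membranes, most of those listed into cells, while the MATE proteins *SLC47A1* and *SLC47A2* export drugs. Of 24 listed, 12 were tested, of which 1 rose and 9 fell at 24 hours and 2 rose and 8 fell at 48 hours, with median log2 differences of -1.20 and -1.25. Over all genes tested, 33.9% were higher and 34.6% lower at 24 hours, and 33.1% and 33.9% at 48 hours. The organic anion transporter gene *SLCO4A1* had 3224 to 4066 normalized counts in DMSO and 1310 to 1378 with AZD5153 at 24 hours, and fell by 1.45 at 24 hours and fell by 2.64 at 48 hours (limma adjusted p = 4.2e-11 and 5.4e-14). Its relative *SLCO4C1*, at 64.1 to 87.9 normalized counts in DMSO at 24 hours, fell by 2.68 at 24 hours and fell by 3.24 at 48 hours (adjusted p = 9.9e-07 and 1.1e-07). The AZD5153 libraries at 24 hours held 6 to 15 reads of *SLCO4C1*, and with a pseudocount of 10 the difference at 24 hours was -2.01. The peptide transporter *SLC15A2* rose by 2.04 at 24 hours and 1.92 at 48 hours (adjusted p = 5e-05 and 9.4e-05), with levels between 8.54 and 15.8 normalized counts in DMSO at 24 hours. The exporter *SLC47A1* was among the carriers that fell at 24 hours (by 0.81, adjusted p = 0.0038), and at 48 hours it differed by -0.14 with overlapping groups (adjusted p = 0.58). Without DMSO 24 hour replicate 3, 2 of the carriers rose at 24 hours, and with a minimum mean of 100 normalized counts 0 rose and 5 fell.

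Of 27 listed regulators of transporter transcription, 25 were tested, of which 6 rose and 15 fell at 24 hours and 6 rose and 12 fell at 48 hours, with median log2 differences of -0.30 and -0.17. Beside this, 33.9% of all genes tested were higher and 34.6% lower at 24 hours, and 33.1% and 33.9% at 48 hours. With scaling to equal totals, 3 of the regulators rose at 24 hours. *NFKB1*, the precursor of an NF-kappaB subunit, had 2002 to 2066 normalized counts in DMSO and 661 to 747 with AZD5153 at 24 hours, and fell by 1.52 at 24 hours and fell by 1.45 at 48 hours (limma adjusted p = 5.4e-12 and 1e-11). The estrogen receptor gene *ESR1* had 25.9 to 50.7 normalized counts in DMSO and 11.3 to 13.5 with AZD5153 at 24 hours, and 62.6 to 73.9 and 3.26 to 4.56 at 48 hours. Its log2 differences were -1.64 and -3.81. Over both times together it passed the minimum mean of 10 only through the DMSO libraries. Its place among the regulators counted as lower was thus partly set by the filter, and no test is given for it. The AZD5153 libraries at 48 hours held 3 to 5 reads of *ESR1*, and with a pseudocount of 10 in place of 1 the difference at 48 hours was -2.49. *NR1I3*, the xenobiotic receptor CAR, had 16.4 to 23.2 normalized counts in DMSO and 0 to 6.14 with AZD5153 at 24 hours, and 10.8 to 18.4 and 0.91 to 3.42 at 48 hours. It passed the minimum mean of 10 only through the DMSO libraries, so that its place among the regulators counted as lower at both times was partly set by the filter, and no test is given for it.

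Of 8 scaffold and membrane proteins listed, all 8 were tested, of which 3 rose and 3 fell at 24 hours and 5 rose and 1 fell at 48 hours, with median log2 differences of 0.21 and 0.46. *CAV1*, the coat protein of caveolae, had 7162 to 8253 normalized counts in DMSO and 1190 to 1249 with AZD5153 at 24 hours and fell by 2.63 at 24 hours and fell by 1.77 at 48 hours (limma adjusted p = 1.1e-14 and 7.2e-13). The PDZ scaffold genes *NHERF1* (1.03 and 0.93, adjusted p = 5.9e-10 and 1.8e-09) and *NHERF2* (1.31 and 0.90, adjusted p = 1.4e-08 and 1.2e-06) rose. The count that fell at 48 hours was 2 under several alternatives, among them the fits without DMSO 24 hour replicate 1 or 3. The counts of all these lists stand beside the 68.5% of all genes called at 24 hours (33.9% higher, 34.6% lower) and 67% at 48 hours (33.1% higher, 33.9% lower). The share called in a list is thus not in itself a result about it.

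Markers of the labelled cell type and of other cell types that carry these transporters were read beside the results. The summed level of 10 neural and glial markers was 23230 to 31870 normalized counts in DMSO and 19420 to 21210 with AZD5153 at 24 hours, and 18540 to 18940 and 16400 to 18030 at 48 hours, most of it *VIM* (14454 to 28352), which mesenchymal cells also express. Of the 7 neural and glial markers tested, 1 rose and 4 fell at 24 hours and 1 rose and 2 fell at 48 hours. *NES* fell by 1.43 at 24 hours and fell by 1.87 at 48 hours (limma adjusted p = 1.7e-11 and 7.8e-13), and *SOX2* fell by 0.60 and fell by 0.30 (adjusted p = 0.00054 and 0.044). The 1 that rose was *PTPRZ1*, a receptor phosphatase of glial progenitors, with 4.27 to 12.5 normalized counts in DMSO and 15.4 to 24.5 with AZD5153 at 24 hours, and 0.90 to 5.4 and 23.7 to 28.2 at 48 hours. It passed the minimum mean only through the AZD5153 libraries, so no test is given for it. *SOX9* fell by 1.35 at 24 hours (adjusted p = 2e-10) and differed by 0.16 at 48 hours (adjusted p = 0.078), and *VIM* fell by 0.28 at 24 hours (adjusted p = 0.018) and differed by 0.01 at 48 hours (adjusted p = 0.93). *GFAP* and *S100B* passed at neither time. The summed level of 9 endothelial markers was 820.6 to 943.1 normalized counts in DMSO and 342.7 to 410.3 with AZD5153 at 24 hours, and 1177 to 1246 and 305.5 to 337.4 at 48 hours. This sum was lower with AZD5153 at both times, as were *ABCB4*, *ABCC2* and *ABCC3*, while *ABCB1*, *ABCC1* and *ABCC5* were higher. The likeness of direction was not tested. The sum was mostly *PECAM1*, an adhesion molecule of endothelial junctions, *ERG*, an endothelial transcription factor, and *EGFL7*, a secreted endothelial protein. *PECAM1* had 275 to 317 normalized counts in DMSO and 39.9 to 49.6 with AZD5153 at 24 hours, and 507 to 565 and 27.2 to 33.4 at 48 hours. *ERG* had 256 to 326 and 93.9 to 128 at 24 hours, and 261 to 279 and 95.7 to 115 at 48 hours. *EGFL7* overlapped at 24 hours (127 to 228 and 151 to 213) and not at 48 hours (243 to 271 and 129 to 157). The junction genes *CDH5* and *CLDN5* were at 0 and at 0 to 2.68 in all libraries. Of the 6 endothelial markers tested, 1 rose and 4 fell at 24 hours and 0 rose and 5 fell at 48 hours. The 1 that rose, *KDR*, likewise passed the minimum mean only through the AZD5153 libraries. *TIE1*, counted as fallen at both times, passed it only through the DMSO libraries (means of 35.1 and 54.2, against 9.77 and 8.01 with AZD5153). The marker counts stand beside 68.5% of all genes called at 24 hours (33.9% higher, 34.6% lower) and 67% at 48 hours (33.1% higher, 33.9% lower). The sum of 6 myeloid markers fell from between 182.6 and 227.8 to between 42.8 and 53.6 at 24 hours and from between 194.4 and 226.1 to between 34.7 and 57.6 at 48 hours, with *AIF1* and *TYROBP* at 0 throughout. This sum was nearly all *CSF1R*, the receptor of colony-stimulating factor 1, which had 176 to 211 normalized counts in DMSO and 23.3 to 34.9 with AZD5153 at 24 hours and fell by 2.73 at 24 hours and fell by 2.49 at 48 hours (limma adjusted p = 8.2e-09 and 2.6e-08). The other myeloid marker tested, *CD14*, differed by 0.63 and -0.19 and did not pass (adjusted p = 0.32 and 0.77). The sum of 5 epithelial markers was 412.5 to 570.6 in DMSO and 575.3 to 626.6 with AZD5153 at 24 hours, and its ranges overlapped at 48 hours (796.3 to 931.8 and 773.2 to 974.6). Of the 3 epithelial markers tested, *CLDN4* rose by 0.75 and *KRT19* fell by 1.32 at 24 hours (adjusted p = 6.4e-05 and 0.012), and at 48 hours 0 rose and 1 fell. *CDH1* was at 0 except for 44.5 normalized counts in AZD5153 48 hour replicate 2, the library with the fewest *ABCB4* reads. The part of these markers in the transporter results was not tested.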

How the data were processed

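RNA-Seq was analysed in 12 libraries of SF8628 cells, 3 for each combination of treatment (DMSO or 1 μM AZD5153) and time (24 or 48 hours), and the CUT&RUN samples of the series were not analysed here. According to the methods, the authors used STAR to align paired-end reads of 150 bases to hg38, HTSeq-count to count reads per gene and DESeq2 to scale the counts. The values they deposited are a signal, gene counts divided by 1 size factor per library. Tool versions, annotation and the strand setting of the counting are not given in the sources used here. The table also holds the authors' own comparison (log2 fold change, its error, p-value and adjusted p-value), which was not used. Division by the smallest step of each library gave whole reads for 100% of its values (tolerance 0.1 reads), from 15759148 to 27335220 per library. Intervals cover the spread between libraries.

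The 15599 genes whose mean reached 10 normalized counts were fitted with limma 3.58.1 in R 4.3.3 (lmFit, eBayes with a trend) on log2(normalized count + 1), all 4 groups in 1 fit with 8 residual degrees of freedom, with Benjamini-Hochberg adjustment at 0.05. A fold change on this scale understates the change of low genes. Alternatives were another pseudocount, minimum mean or scaling, a replicate block, only the groups compared, no trend, each library left out, and edgeR 4.0.16 and DESeq2 1.42.0 on the recovered reads. The limma step was also run on simulated counts of 15503 genes, of which 200 were given a log2 difference of 1. It recovered 97% of these 200 at 24 hours and 96% at 48 hours, and 5.37% and 5.88% of its calls were false. In the real libraries 68.5% of all genes tested were called at 24 hours and 67% at 48 hours. The simulated rates may therefore not hold for a response as broad as that one.

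The members and the gene lists were chosen with earlier results of these data known. Named besides the members were, from each list, up to 3 genes with the largest difference over both times among those called at both times in 1 direction; genes past the same minimum that overlap a member or lie within 250 kb of *ABCB1*; and the 5 genes most correlated with *ABCB1*. The markers *OLIG1*, *OLIG2*, *PDGFRA*, *NES*, *SOX2*, *VIM*, *PTPRZ1*, *SOX9*, *GFAP*, *S100B*, *PECAM1*, *ERG*, *EGFL7*, *KDR*, *TIE1*, *CDH5*, *CLDN5*, *CDH1*, *CLDN4*, *KRT19*, *AIF1*, *TYROBP*, *CSF1R* and *CD14* are from the marker lists. Like the carriers *SLC47A1* and *SLC47A2* and the ABC genes *ABCD2* and *ABCC11*, they were singled out after their values were seen. Positions are from GENCODE 44 on GRCh38, matched by gene identifier, and promoters from RefSeq.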

Additional observations from a re-analysis of the deposited data

Results flagged for a closer look

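For 3 transporter genes the AZD5153 effect differed between 24 and 48 hours by the interaction term of the limma fit. For *ABCC3* the difference of the log2 effects (48 minus 24 hours) was -0.98 (adjusted p = 4e-05), with lower levels at both times. For *ABCC4* it was 0.42 (adjusted p = 0.0073), with a lower level at 24 hours and overlapping groups at 48 hours. For *ABCG2* it was 1.35 (adjusted p = 1.8e-05), with the 3 AZD5153 libraries below DMSO at 24 hours and above it at 48 hours. Each of these calls held in the 23 alternatives that gave a value. The cause of the differences was not tested.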

How the results depend on the processing

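Deviations of same-numbered libraries correlated between -0.151 and 0.0363, so no pairing by replicate number was seen. With 3 libraries per group this cannot exclude a pairing, and the labels do not give one. With the replicate block, 4 members besides *ABCB1* were lower at 24 hours in place of 5, since *ABCG2* (-0.26) had an adjusted p of 0.054, and no other call on the members changed. With a minimum mean of 100 normalized counts, *ABCB4* and *ABCC2* were not tested, so that 3 members were lower at 24 hours and 1 at 48 hours. The deposited scaling put the median log2 difference of all genes at 0.00, and scaling to equal totals put it at -0.12 at 24 hours and -0.17 at 48 hours. Of the calls at 24 hours, 40.8% were then higher in place of 49.5%, and of those at 48 hours 37.4% in place of 49.4%, and the *ABCC4* difference at 48 hours turned to -0.12. Its call did not change (adjusted p = 0.17). The numbers of genes called stayed within 1.5 times under every alternative run (24 hours: 8397 to 11165, 48 hours: 8305 to 11377).

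Other changes of sign were all in differences that passed no test. From 24 to 48 hours in DMSO, *ABCC5* turned to 0.0263 with equal totals and 0.0372 with quantile normalization, and quantile normalization gave -0.155 for *ABCB1* and -0.115 for *ABCC2*. It also gave -0.0272 for the *ABCC1* difference between effects. From 24 to 48 hours with AZD5153, *ABCB4* turned to 0.0824 with edgeR and 0.0887 with DESeq2. With each library left out in turn, the change in DMSO ranged from -0.0736 to 0.0039 for *ABCC5*, -0.0238 to 0.0591 for *ABCB1* and -0.117 to 0.321 for *ABCC2*. The change with AZD5153 ranged from -0.627 to 0.451 for *ABCB4*, -0.0599 to 0.00544 for *ABCB1*, -0.0182 to 0.0824 for *ABCC4* and -0.491 to 0.0500 for *ABCC2*. The *ABCC1* difference between effects ranged from -0.00541 to 0.171. The causes were not tested. A pseudocount of 10 moved the fold of the member *ABCB4* at 48 hours (-3.02 in place of -3.80 on the log2 scale) by over 1.5 times. The same held for *ABCC9* at 48 hours (-3.29), *SLCO4C1* at 24 hours (-2.01), *ESR1* at 48 hours (-2.49) and *NR1I3* at both times (-1.12 and -0.92). Depth limits *ABCB4* and *ABCC2*, with as few as 4 and 12 reads in treated libraries.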
